A study of Mus musculus with 8 samples.

Results

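The genes for the transcription factors that drive fat cell formation were examined for binding of GATA2 in 2 mouse precursor cell lines. They are the 9 genes Pparg, Rxra, Cebpa, Cebpb, Cebpd, Ebf1, Ebf2, Ebf3 and Ebf4, chosen by name, out of 21631 protein-coding genes on the chromosomes that hold peaks. The choice was made with earlier results of these data known, so shares set beside those of all genes are descriptive only. GATA2 binding sites were mapped by chromatin immunoprecipitation and sequencing (ChIP-seq) in 3T3-L1, an embryonic fibroblast line committed to the fat lineage, and in C3H10T1/2, an embryonic fibroblast line that can form fat, bone, cartilage or muscle cells. Both are established unmodified lines, and the labels name no differentiation treatment and no genetic change. The labels name 4 groups of 2 libraries, which are GATA2 ChIP from 3T3-L1, input from 3T3-L1, GATA2 ChIP from C3H10T1/2 and input from C3H10T1/2. Cells of passages 4 to 6 were used, with about 100 µg of chromatin and 10 µg of antibody per precipitation, and DNA of separate precipitations was pooled. The values analysed were the positions of 2445 peaks in 3T3-L1 and 1557 peaks in C3H10T1/2, in 1 list per line. No list for a single library was analysed, so differences between 3T3-L1 and C3H10T1/2 have no replicate spread to be judged by and no test was run. The read depth behind each list is unknown, and a gene without a peak is only a gene at which no peak was listed. No expression value was analysed, so the identity of the lines was not checked against marker genes.

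Pparg encodes PPARγ, the nuclear receptor that is required for fat cell formation, and Rxra encodes RXRα, with which PPARγ binds DNA as a pair. The C/EBP proteins are leucine zipper factors. C/EBPβ (Cebpb) and C/EBPδ (Cebpd) appear early after a hormonal stimulus and precede C/EBPα (Cebpa) and PPARγ, which then maintain each other's expression. The EBF proteins are helix-loop-helix factors. EBF1 promotes fat cell formation in culture and EBF2 marks and directs brown fat precursors. GATA2 is a zinc finger factor of precursor cells that restrains fat cell formation, and earlier work described GATA sites in the promoter of the Pparg isoform that is specific to fat cells.

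A GATA2 peak lay near more of these genes in 3T3-L1 than in C3H10T1/2. Genes are taken from the RefSeq table of GRCm38.p6, the mm10 assembly, as the span between their lower and higher coordinates, and a peak was placed by its centre. Inside the gene body there was a 3T3-L1 peak at 4 of 9 genes (44.4%, exact 95% Clopper-Pearson interval 13.7 to 78.8), against 2.79% of all protein-coding genes. These were Pparg, Ebf1, Ebf2 and Ebf3. A C3H10T1/2 peak lay inside 2 of 9 (22.2%, interval 2.81 to 60), Rxra and Ebf1, against 2.59% of all genes. In the body or within 10 kb the count was 5 of 9 in 3T3-L1 (interval 21.2 to 86.3), with Cebpa added, against 3.96% of all genes. In C3H10T1/2 it stayed at 2 of 9, against 3.64%. In the body or within 100 kb it was 6 of 9 in 3T3-L1 (66.7%, interval 29.9 to 92.5), against 13.9% of all genes, and 3 of 9 in C3H10T1/2 (33.3%, interval 7.49 to 70.1), against 12.1%. Each of the 3 genes reached in C3H10T1/2, Pparg, Rxra and Ebf1, was also reached in 3T3-L1, and 6.35% of all genes had peaks of both lines in that window. The C3H10T1/2 peak counted for Pparg was nearer to Syn2 (34.3 kb) than to Pparg (43.9 kb). With peaks assigned to their nearest protein-coding gene alone, the C3H10T1/2 count was 2 and the 3T3-L1 count stayed at 6. The intervals cover counting error over genes only, and not the choice of genes, which was made with earlier results of these data known. The 3T3-L1 and C3H10T1/2 intervals overlapped in each of the 3 windows. Both are over the same 9 genes, so their overlap does not measure whether the lines differ.

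Gene length differs widely in this set and bears on these counts. Pparg, Rxra and the 4 Ebf genes have bodies of 75.4 to 390.0 kb, and the 3 C/EBP genes have bodies of 1.52 to 2.64 kb. Among genes with a body of 50 kb or more, 9.55% held a 3T3-L1 peak and 8.82% held a C3H10T1/2 peak, and of the 6 long genes here 4 (interval 22.3 to 95.7) and 2 (interval 4.33 to 77.7) did. Within 100 kb of the body it was 21% of long genes in 3T3-L1 and 17.7% in C3H10T1/2, and 5 (interval 35.9 to 99.6) and 3 (interval 11.8 to 88.2) of the 6 long genes here. The part of gene length in the counts was not tested beyond these classes. Among genes under 5 kb, 0.763% had a 3T3-L1 peak inside them or at most 10 kb away, and Cebpa was the 1 of the 3 short genes here with such a peak.

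**Figure D1:**
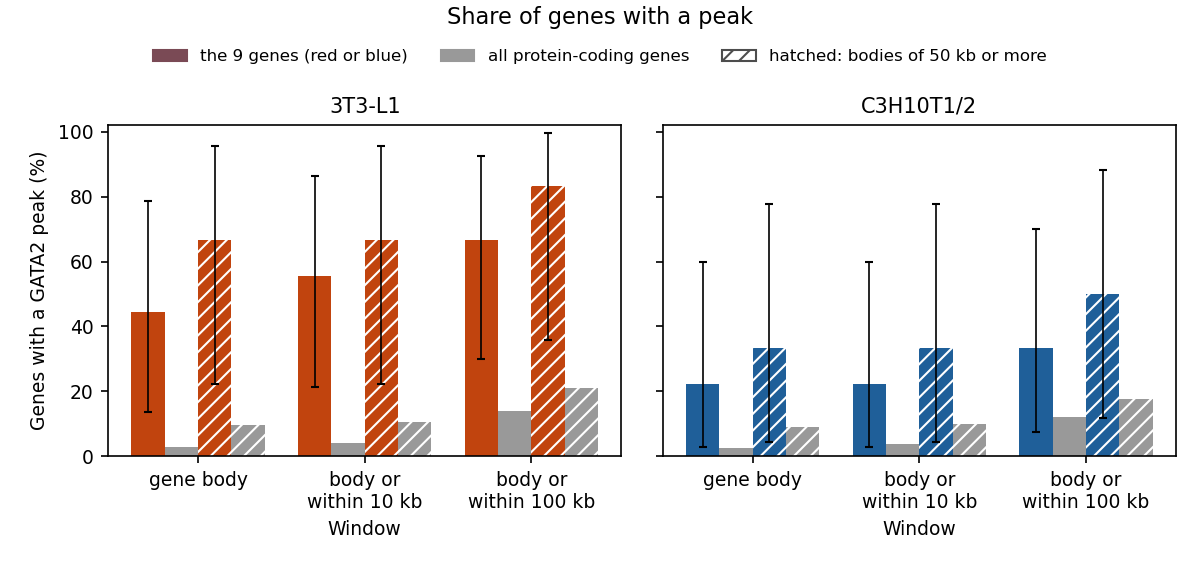
Percent of genes (y axis, from 0) with a GATA2 peak in 3 windows (x axis), for 3T3-L1 (left) and C3H10T1/2 (right). Coloured bars are the 9 genes with exact 95% intervals, grey bars are all protein-coding genes, and hatched bars are the 6 genes, or all genes, with bodies of 50 kb or more. The coloured bars without hatching stand at 44.4% to 66.7% of the 9 genes in 3T3-L1 and at 22.2% to 33.3% in C3H10T1/2, with wide intervals.

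Pparg (chr6:115360879-115490404, RefSeq gene 19016, plus strand) had 4 peaks of 3T3-L1 and 1 of C3H10T1/2 in the body or within 100 kb. At least 4 peaks of 3T3-L1 were found at 0.314% of all genes, a share not matched for gene length. RefSeq gives Pparg 3 starts, at 115361144, 115362349 and 115422066. The 2 peaks of 3T3-L1 inside the gene, at chr6:115452749-115452898 (150 bp) and chr6:115463053-115463218 (166 bp), had centres 10.3 kb apart. They lay 71% and 78.9% along the body, 30.8 kb and 41.1 kb downstream of the third start. Both thus lay downstream of every listed start. A peak of 130 bp at chr6:115350184-115350313 lay upstream of the gene, 10.9 kb before the first start and in no annotated gene, just outside the 10 kb window. The peak farthest from the gene, at chr6:115541852-115542039 (188 bp), lay 51.5 kb beyond its higher boundary, inside Gm36355, a gene for a long non-coding RNA (lncRNA). The C3H10T1/2 peak at chr6:115316852-115317085 (234 bp) lay on the other side, 44.2 kb before the first start. Its centre was 33.3 kb from the nearest 3T3-L1 peak, and none of the 5 peaks was shared.

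The C3H10T1/2 peak upstream of Pparg lay inside the lncRNA gene Gm38877 (chr6:115306225-115317088), at its 5′ end without reaching its start. Gm38877 is transcribed from the minus strand, away from Pparg. This was the 1 peak of the 14 at these genes that touched a RefSeq promoter window, the 300 bases from 250 before to 50 after a start, so it is the 1 peak of which any bases could be read here. The window of Gm38877 (RefSeq, GRCm38.p6, chr6:115317039-115317338, minus strand) is shown because it holds 47 of the 234 bases of the peak (20.1%), which are in capitals.
Gm38877 start: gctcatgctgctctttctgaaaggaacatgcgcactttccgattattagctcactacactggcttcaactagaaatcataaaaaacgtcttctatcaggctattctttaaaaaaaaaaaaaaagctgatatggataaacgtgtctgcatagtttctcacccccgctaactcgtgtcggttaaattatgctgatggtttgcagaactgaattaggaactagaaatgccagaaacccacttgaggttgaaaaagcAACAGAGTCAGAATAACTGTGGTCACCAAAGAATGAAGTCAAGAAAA
The 47 bases hold no GATA in either orientation. The window holds GATA 3 times outside the peak, counted on both strands. In 1 of these the letters form TGATAG, which was among the 4 forms searched on both strands (GATA with an A or a T before it and an A or a G after it). That match lay on the plus strand at chr6:115317242-115317247, 157 bp beyond the end of the peak. One of the 4 forms occurred in 29.8% of all 32851 promoter windows, so the match describes these letters and does not mark a binding site. The rest of the peak was not read.

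No promoter window of these genes held a peak of either line. RefSeq windows were matched for 7 of the 9 genes, with 11 windows in all, and none was matched for Cebpd or Ebf2. Over all windows, 0.125% overlapped a 3T3-L1 peak and 0.146% a C3H10T1/2 peak, so 0 of 11 is near this background. None of the 11 windows held any of the 4 GATA forms, and 1, at the first Ebf1 start, held the letters GATA, against 57.9% of all windows. The median G and C content was 67.3% in the 11 windows and 52.7% over all windows. The part of base content in the absence of these letters was not tested. The window of the third Pparg start is the closest upstream start to the peaks inside the gene, and that of Ebf1 is the one with GATA letters. The 250 bases before each start are printed (RefSeq, GRCm38.p6, both plus strand), Pparg from chr6:115421816-115422065 and Ebf1 from chr11:44617850-44618099, with GATA read on the other strand, TATC, in capitals.
Pparg start 3: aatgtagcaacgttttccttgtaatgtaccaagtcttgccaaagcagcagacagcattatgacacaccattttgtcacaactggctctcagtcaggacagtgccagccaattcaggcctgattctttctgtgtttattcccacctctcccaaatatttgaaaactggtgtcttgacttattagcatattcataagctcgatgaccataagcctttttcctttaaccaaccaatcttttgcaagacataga
Ebf1 start 1: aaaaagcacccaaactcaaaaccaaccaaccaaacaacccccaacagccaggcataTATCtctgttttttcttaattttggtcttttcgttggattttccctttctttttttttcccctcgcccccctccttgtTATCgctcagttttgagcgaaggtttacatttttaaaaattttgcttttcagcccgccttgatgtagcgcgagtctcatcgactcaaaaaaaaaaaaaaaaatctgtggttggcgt
The Pparg stretch has no capitals because GATA was absent from it, and its window has a G and C content of 40.3%. In the Ebf1 stretch TATC begins 194 and 116 bases before the start. Neither copy is part of a form that was searched.

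**Figure D2:**
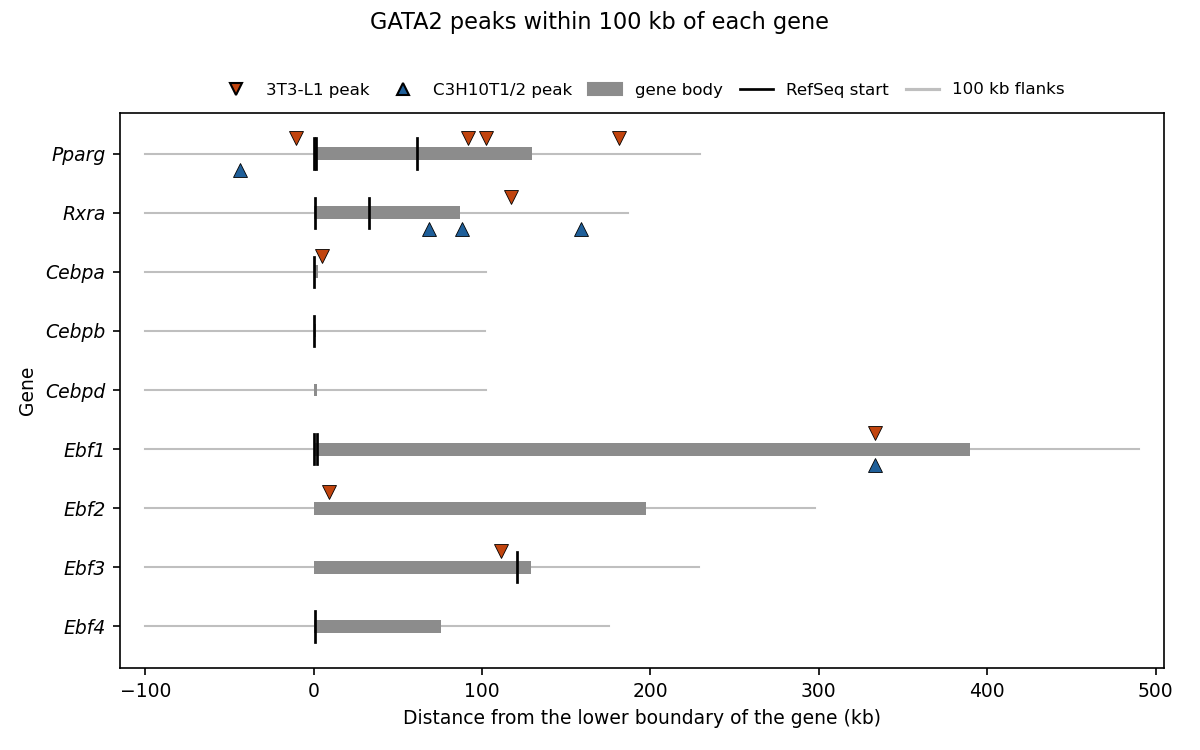
Position of each peak (triangles) along each gene, as distance in kb from the gene's lower boundary (x axis), with gene bodies in grey, RefSeq starts as black ticks and flanks of 100 kb as thin lines. Triangles above a gene are 3T3-L1 peaks and those below are C3H10T1/2 peaks. Peaks of the lines coincide at Ebf1 alone.

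Rxra had the reverse distribution, with 1 peak of 3T3-L1 and 3 of C3H10T1/2 in the body or within 100 kb. The gene lies at chr2:27676445-27763319 on the plus strand, with RefSeq starts at 27677201 and 27709292. At least 3 peaks of C3H10T1/2 were found at 0.68% of all genes, a share not matched for gene length. The 3T3-L1 peak at chr2:27793608-27793766 (159 bp) lay 30.4 kb beyond the 3′ boundary of the gene and in no annotated gene. One C3H10T1/2 peak, at chr2:27744955-27745116 (162 bp), lay inside the gene, 79% along its body and 35.7 kb downstream of the second start. Another, at chr2:27764416-27764600 (185 bp), lay 1.19 kb beyond the 3′ boundary. The remaining one, at chr2:27835051-27835203 (153 bp), lay 71.8 kb beyond it, inside the lncRNA gene Gm39777, and was 51.3 kb from the collagen gene Col5a1, its nearest protein-coding gene. No peak of 3T3-L1 overlapped one of C3H10T1/2, and the closest pair of centres was 29.2 kb apart. All 4 peaks lay in the last part of the gene or beyond its 3′ end.

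The C/EBP genes had 1 peak among them. Cebpa (chr7:35119293-35121928, plus strand) had a single 3T3-L1 peak at chr7:35124298-35124379, 5.05 kb downstream of its start and past its 3′ end. That peak was 82 bp wide, a width not exceeded by 8.63% of the 3T3-L1 list, and the next 3T3-L1 peak was 6303.9 kb away. The C3H10T1/2 list had its nearest peak 799.3 kb from Cebpa. The neighbouring gene Cebpg, whose product C/EBPγ lacks an activating domain, lies 62.7 kb below Cebpa and had no other peak within 100 kb. Cebpb (chr2:167688915-167690432) had none within 100 kb, and its nearest peaks were 330.4 kb away in 3T3-L1 and 337.5 kb away in C3H10T1/2. Cebpd (chr16:15887286-15889545) had none either, with nearest peaks 648.6 kb away in 3T3-L1 and 592.8 kb away in C3H10T1/2. Cebpd overlaps a boundary of Spidr, a DNA repair gene, which had no peak in or within 100 kb of it in either line. A share of 8.54% of genes under 5 kb had a 3T3-L1 peak within 100 kb and 7.32% had a C3H10T1/2 peak, so a lack of peaks is the usual state of short genes.

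The EBF genes split into 3 with a peak inside the body and 1 without. Ebf1 (chr11:44618100-45008096, plus strand) held the single site shared by the lines. The 3T3-L1 peak at chr11:44951620-44951707 (88 bp) lay wholly within the C3H10T1/2 peak at chr11:44951590-44951752 (163 bp), with centres 7.5 bp apart. The site lay 85.5% along the gene, 333.6 kb downstream of the first start, and the next peak was 267.5 kb away in each line. Ebf2 (chr14:67233292-67430952) held a 3T3-L1 peak of 283 bp at chr14:67242156-67242438, 9.01 kb inside its lower boundary, and its nearest C3H10T1/2 peak lay 190.2 kb outside the gene. Ebf3 (chr7:137193671-137322805, minus strand) held a 3T3-L1 peak of 222 bp at chr7:137305080-137305301, 9.25 kb downstream of its RefSeq start at 137314445. The nearest C3H10T1/2 peak to Ebf3 lay 1593.4 kb away, and 72.5% of all genes had one as near or nearer. Ebf4 (chr2:130295126-130370482, plus strand), which is the shortest of the 4, had no peak within 100 kb, with nearest peaks 1002.3 kb away in 3T3-L1 and 1220.0 kb away in C3H10T1/2. The sites in Ebf1 and Ebf3, the 2 EBF genes with both a peak and a listed start, were thus 9.25 kb or more from a start.

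The distance from gene to nearest peak centre, counted as 0 inside a gene, ordered the genes differently in the 2 lines. In 3T3-L1 the order was Pparg, Ebf1, Ebf2 and Ebf3 (0), Cebpa (2.41 kb), Rxra (30.4 kb), Cebpb (330.4 kb), Cebpd (648.6 kb) and Ebf4 (1002.3 kb), with a median of 2.41 kb, against 588.3 kb over all protein-coding genes. In C3H10T1/2 it was Rxra and Ebf1 (0), Pparg (43.9 kb), Ebf2 (190.2 kb), Cebpb (337.5 kb), Cebpd (592.8 kb), Cebpa (799.3 kb), Ebf4 (1220.0 kb) and Ebf3 (1593.4 kb), with a median of 337.5 kb, against 743.3 kb. Cebpa and Ebf3 were among the nearer genes in 3T3-L1 and lay beyond the all-gene median in C3H10T1/2. Ebf4 lay beyond the all-gene median in both lines. Cebpd lay beyond it in 3T3-L1 and within it in C3H10T1/2, and Cebpb lay within it in both. A peak as near as the one at Cebpa in 3T3-L1 was found at 3.16% of all genes, and one as near as that at Pparg in C3H10T1/2 at 6.8%. The all-gene medians and shares here are not matched for gene length, and 6 of the 9 genes have bodies of 50 kb or more. Of all genes that long, 9.55% held a 3T3-L1 peak and so had a distance of 0, against 2.79% of all genes. With 1 list per line, how far these distances vary between cultures was not measured.

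**Figure D3:**
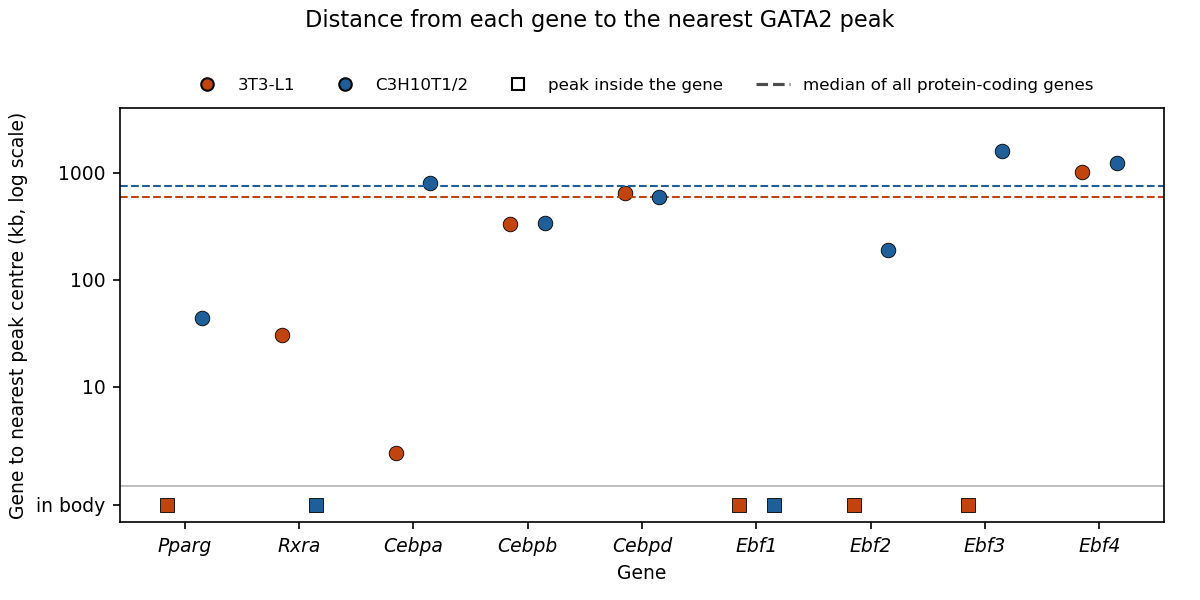
Distance in kb on a log scale (y axis) from each gene (x axis) to the nearest GATA2 peak centre, with 3T3-L1 left and C3H10T1/2 right in each pair. Squares at the bottom mark a peak inside the gene, and dashed lines mark the medians of all protein-coding genes, 588.3 kb in 3T3-L1 and 743.3 kb in C3H10T1/2. Cebpa, Ebf2 and Ebf3 have a 3T3-L1 peak at or in the gene and none within 100 kb in C3H10T1/2.

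The lines shared 1 site at these genes. Peaks of the 2 lists were taken as shared where at least 1 bp was common to them. In 3T3-L1, of 9 peaks in the bodies or within 100 kb, 1 was shared (11.1%, exact 95% interval 0.281 to 48.2), against 22.4% of its whole list, and of the 5 peaks of C3H10T1/2, 1 was shared (20%, interval 0.505 to 71.6), against 34.7%. Both intervals include the share of the whole list. At Pparg and Rxra both lines had peaks within 100 kb, but at separate positions. Of the 14 peaks, 7 lay inside a gene of the set, and none lay in a dense block, which is a run of 8 or more peaks in the same list, none more than 20000 bp from the next.

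The peaks differed in width among themselves. In 3T3-L1 they were 82 to 283 bp wide, with a median of 159 bp, against 144 bp over the list. In C3H10T1/2 they were 153 to 234 bp wide, with a median of 163 bp, against 184 bp. The Ebf2 peak was wider than or as wide as 92.2% of 3T3-L1 peaks and the Ebf3 peak 82%. The commonest width in the 3T3-L1 list was 81 bp, with 106 peaks, against 1 peak of 80 bp, and why was not tested. The Cebpa peak (82 bp) was next to that width. It and the 3T3-L1 peak at Ebf1 (88 bp) fell among the 251 peaks of that list that were 80 to 89 bp wide. These widths are close to the narrow end of the list's range of 50 to 3323 bp. The shared Ebf1 site was therefore represented by a narrow peak in 3T3-L1 and by one of 163 bp in C3H10T1/2, where 36.9% of peaks were no wider. The files hold no height or score, so how strong any of these sites is could not be measured.

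**Figure D4:**
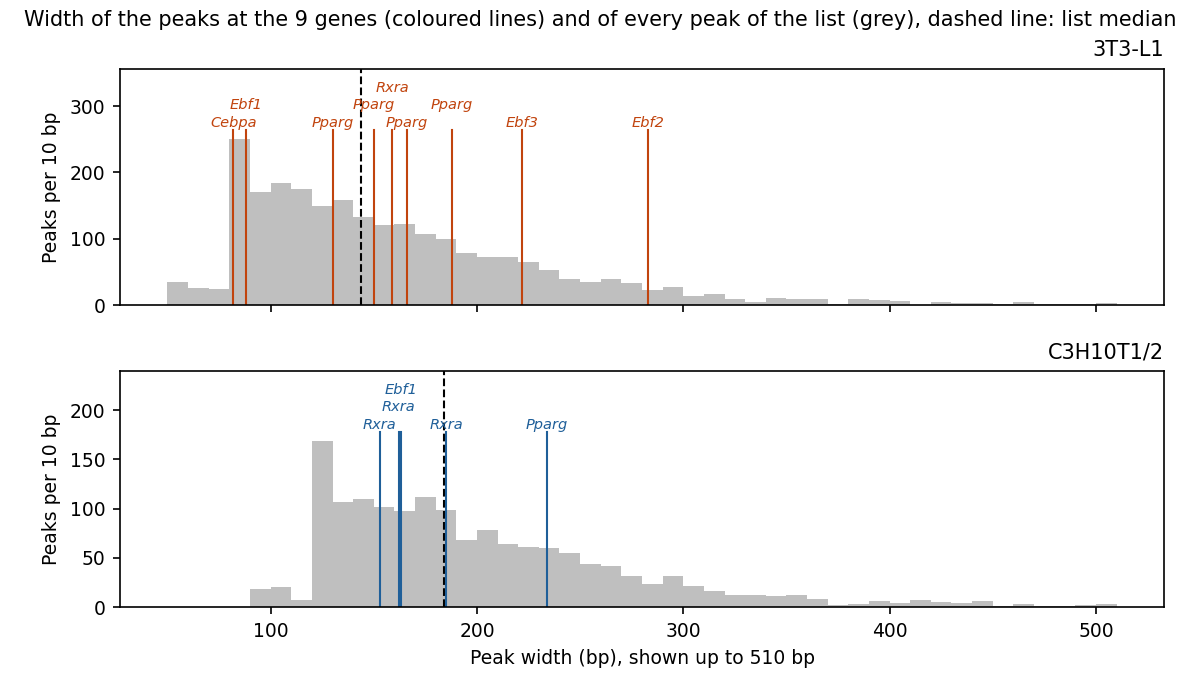
Width in bp (x axis) of the peaks at the 9 genes, as coloured lines with gene names, over the number of peaks per 10 bp of width in each whole list (y axis, grey), for 3T3-L1 above and C3H10T1/2 below. Dashed lines are the list medians, 144 bp in 3T3-L1 and 184 bp in C3H10T1/2. The peaks at Cebpa and Ebf1 in 3T3-L1 stand at the narrow end and those at Ebf2 and Ebf3 toward the wide end.

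Other genes of the fat cell program were described by 4 lists. These lists were chosen with earlier results of these data known and are not matched for gene length, so their shares are descriptive only. In the body or within 10 kb, their relatives and partners (Ppara, Ppard, Rxrb, Rxrg, Cebpe, Cebpg, Ddit3 and Nr1h3) were without a peak in either line (0 of 8 genes each). Other genes that promote fat cell formation had 1 of 17 in 3T3-L1 and 0 of 17 in C3H10T1/2. That gene was Ppargc1a, which encodes the PPARγ coactivator PGC-1α, with a 175 bp peak inside it at chr5:51511590-51511764. Genes that restrain fat cell formation had 4 of 20 in each line, with Hes1 and Runx2 in both. At Runx2 each line had 1 peak inside the gene, at separate positions. These were chr17:44667600-44667732 in 3T3-L1 and chr17:44588027-44588192 in C3H10T1/2, and neither was shared. Gata3, a GATA factor with a similar role to GATA2 in fat, and Zfpm2, whose product FOG2 is a GATA cofactor, had peaks in 3T3-L1, at 9.68 kb from Gata3 and with 2 peaks inside Zfpm2. Tcf7l1 and Tcf7l2, which encode the nuclear effectors of Wnt signalling, had C3H10T1/2 peaks inside them, 2 at Tcf7l1 and 1 at Tcf7l2. At Hes1, a target of Notch signalling, the shared peak had its centre 0.663 kb from the gene in 3T3-L1 and 0.626 kb in C3H10T1/2. Within 10 kb of Hes1 there were 2 peaks of 3T3-L1 and 1 of C3H10T1/2. Of the genes that mature fat cells use, Retsat, the retinol saturase gene, was 1 of 24 with a peak in 3T3-L1, and 0 of 24 had one in C3H10T1/2. Against the background of 3.96% and 3.64%, the target genes, the relatives and the promoting genes were near or below the share of all genes. The restraining genes were above it. Of these, Zfpm2, Runx2, Tcf7l1 and Tcf7l2 have bodies of 50 kb or more, and Gata3 and Hes1 are shorter. Among all genes of 50 kb or more the shares were 10.6% in 3T3-L1 and 9.8% in C3H10T1/2. The part of gene length in these counts was not tested.

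Within 100 kb the relatives reached a peak of 3T3-L1 in 1 of 8 cases and none of C3H10T1/2, and the 1 was the Cebpa peak reached from Cebpg. The promoting genes had 3 of 17 in each line, the restraining genes 8 of 20 in 3T3-L1 and 6 of 20 in C3H10T1/2, and the target genes 3 of 24 in 3T3-L1 and 4 of 24 in C3H10T1/2. The 3T3-L1 peak inside Retsat was 24.4 kb from Tcf7l1, so it counts for a target gene and for a restraining gene. The share of all genes within 100 kb of a peak, not matched for gene length, was 13.9% in 3T3-L1 and 12.1% in C3H10T1/2. The median distance to the nearest 3T3-L1 peak was 140.5 kb for the restraining genes, 290.8 kb for the promoting genes, 440.9 kb for the target genes and 578.6 kb for the relatives. In C3H10T1/2 it was 448.8 kb, 562.9 kb, 349.2 kb and 677.7 kb for the same lists. Over all protein-coding genes it was 588.3 kb in 3T3-L1 and 743.3 kb in C3H10T1/2.

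The genes whose counts in the 3 windows and 2 lines were most like those of a gene in the set were found by the sum of absolute differences over these 6 counts. For Rxra, Tsc22d1 on chromosome 14 (92.8 kb long) had the same 6 counts and was the 1 gene that did. For Pparg no gene matched, and Lypd6 and Susd1, with 2 peaks of 3T3-L1 in the body, 3 within 100 kb and 0 of C3H10T1/2, differed by 2, as did 11 genes in all. For Ebf1, 111 genes had its 6 counts, of which Dip2c and Sorcs2 were closest in length.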

How the data were processed

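GATA2 ChIP and input libraries of 3T3-L1 and C3H10T1/2 are named in the labels, and 1 deposited peak list per line was analysed. Each list gives chromosome, start and end in bp and no score. Per the submitters' processing notes, reads were handled with MACS2, bedtools, Bowtie2, SAMtools and CASAVA 1.8 on build mm10, without roles or settings. How the authors combined libraries, used input or set a threshold, and the depth, are not given in the sources used here. These choices set which peaks are listed and how wide they are. Starts were shifted by 1 bp so that positions count from 1.

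Gene spans, starts and sequences came from RefSeq tables of GRCm38.p6, without exons, so no position is given as exonic, intronic or in a UTR. Placement and overlap were computed with Python 3.11.15, pandas 2.3.3 and scipy 1.17.1, and checked on planted peaks. No test across samples was possible with 1 list per line. The genes and lists were chosen with earlier results of these data known. All peaks within 100 kb of the 9 genes are named, as are listed genes with a peak in the body or within 10 kb, and genes most like a member with at least 2 peaks. For the latter, ties in counts were resolved by body length. The input libraries were not used here.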

Additional observations from a re-analysis of the deposited data

How the results depend on the processing

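The counts of genes with a peak, the counts of peaks at them and the shared shares were recomputed under 8 alternatives, which gave 56 values, of which 48 stayed within 1.5 times the reported count or within the interval of the reported share. With only the peaks at least as wide as the median of their list, the number of genes with a peak in the body or within 10 kb was 3 in 3T3-L1 and 1 in C3H10T1/2, the number with a C3H10T1/2 peak in the body was 0, C3H10T1/2 peaks numbered 2, and the shared part was 0% in each line. The narrow peaks at Cebpa and Ebf1 were among those left out. With windows of 200 kb C3H10T1/2 peaks at the genes numbered 8, and with peaks assigned to their nearest protein-coding gene alone they numbered 3. Under that assignment the genes with a C3H10T1/2 peak in the body or within 100 kb numbered 2, without Pparg. Leaving out dense blocks, counting any base of a peak, and both other overlap rules gave the reported values. No paired analysis was possible because each line has 1 peak list and no result comes from a test, and no replicate could be left out for the same reason. The unknown depth limits any statement that a peak is missing.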

Other observations

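Outside the 100 kb windows, Ebf2 was the 1 gene of the 9 with peaks between 100 and 200 kb away. A 3T3-L1 peak of 182 bp lay 153.8 kb below it at chr14:67079377-67079558, 7 kb from Ppp2r2a, which encodes a regulatory subunit of protein phosphatase 2A. Above it lay 3 peaks of C3H10T1/2, at chr14:67621051-67621251, chr14:67621409-67621541 and chr14:67622033-67622170, which were 190.2 to 191.1 kb from Ebf2. Their nearest protein-coding gene was Cdca2, a cell division gene, at 51.1 to 52 kb. None of these 4 peaks was shared.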
